A study of Danio rerio with 12 samples.

Results

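The genes described here are 34 cell cycle and DNA replication genes, used as a readout of dividing cells in adult zebrafish muscle. They were chosen by symbol from the gene name table supplied with the counts. All 34 symbols had a match, and mcm6 and rrm2 each named 2 gene rows, so 36 of the 32520 counted gene rows are described. Those pairs are told apart below by Ensembl identifier, and reads of near-identical copies could be split between them.

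Polyadenylated RNA had been sequenced from the muscles around the eyeball (extraocular muscle, EOM) and from trunk muscle of fish of the AB strain, all aged 5 months. Wild-type (WT) fish were compared with desma-/-;desmb-/- double mutants, which carry mutations in both desmin genes. Desmin is the main intermediate filament of muscle. The 4 groups were WT EOM, mutant EOM, WT trunk and mutant trunk, with 3 libraries each and 12 in all. Per the labels, the WT line was the one from which the mutant was made, and they name no transgene or treatment. The labels give no sex either. Nothing in the labels says that the libraries of a group came from separate fish, or how many fish each pooled, so the p-values measure the spread between these libraries. A dissected muscle holds fibres and all cells between them. In such bulk RNA, fewer dividing cells and less RNA per dividing cell cannot be told apart.

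A cell that is to divide passes from growth (G1) into DNA synthesis (S phase), and then through G2 into mitosis (M phase). Cyclins and their partner kinases drive these steps. The minichromosome maintenance (MCM) proteins form the helicase that is loaded on replication origins and unwinds DNA. PCNA is the sliding clamp of the replication fork, and ribonucleotide reductase and thymidylate synthase make deoxynucleotides. Aurora and Polo-like kinases, kinetochore proteins and spindle motors act in mitosis. Muscle fibres have left the cell cycle. In muscle the dividing cells can be satellite cells, which are the stem cells of muscle, fibroblasts, endothelial cells or leukocytes.

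Each library held 64.5 to 91.1 M sense reads on genes. Levels are given as normalised read counts (CPM, counts per M reads) on one scale over the 12 libraries. A count of 3 reads, the limit that a count of 0 allows, corresponded to between 0.0216 and 0.0713 CPM, counting error only. The muscle fibre marker list summed to between 22050 and 218700 CPM, so all 12 libraries were rich in fibre transcripts. Of the 2 gene rows named as desmin, ENSDARG00000058656.6 averaged 865 ± 426 CPM in EOM of WT fish and 22.8 ± 4.11 CPM in EOM of mutants (SD, n = 3). In trunk it averaged 579 ± 62.9 CPM in WT and 45.4 ± 14.99 CPM in mutants. The other row, ENSDARG00000005221.8, did not exceed 0.285 CPM in any library and could not check the labels.

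The 36 genes together took up 0.00474 to 0.0184% of the sense reads. They summed to 147.5, 107.9 and 91.9 CPM in WT EOM libraries 1, 2 and 3. Mutant EOM gave 164.9, 186.0 and 99.2 CPM, WT trunk 127.3, 114.2 and 57.9 CPM, and mutant trunk 74.2, 90.2 and 128.5 CPM. All 4 groups overlapped. The mutant group mean was 1.30 ± 0.51 times the WT mean in EOM and 0.98 ± 0.46 times in trunk (ratio with its propagated SD). These sums rest on normalisation factors of 0.555 to 1.80. As shares of sense reads, WT EOM libraries held 0.0140, 0.0137 and 0.0154%, with library 3 the highest, not the lowest. Mutant EOM held 0.0146, 0.0184 and 0.0179%, WT trunk 0.0127, 0.0114 and 0.00557%, and mutant trunk 0.00474, 0.00501 and 0.0118%. The genotypes overlapped by this measure too. Reads of pcna and ccnd1 made up 21.6 to 56.7% of the summed CPM. Of the 432 single values, 6 were 0 reads and 8 were 3 reads or fewer.

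**Figure D1:**
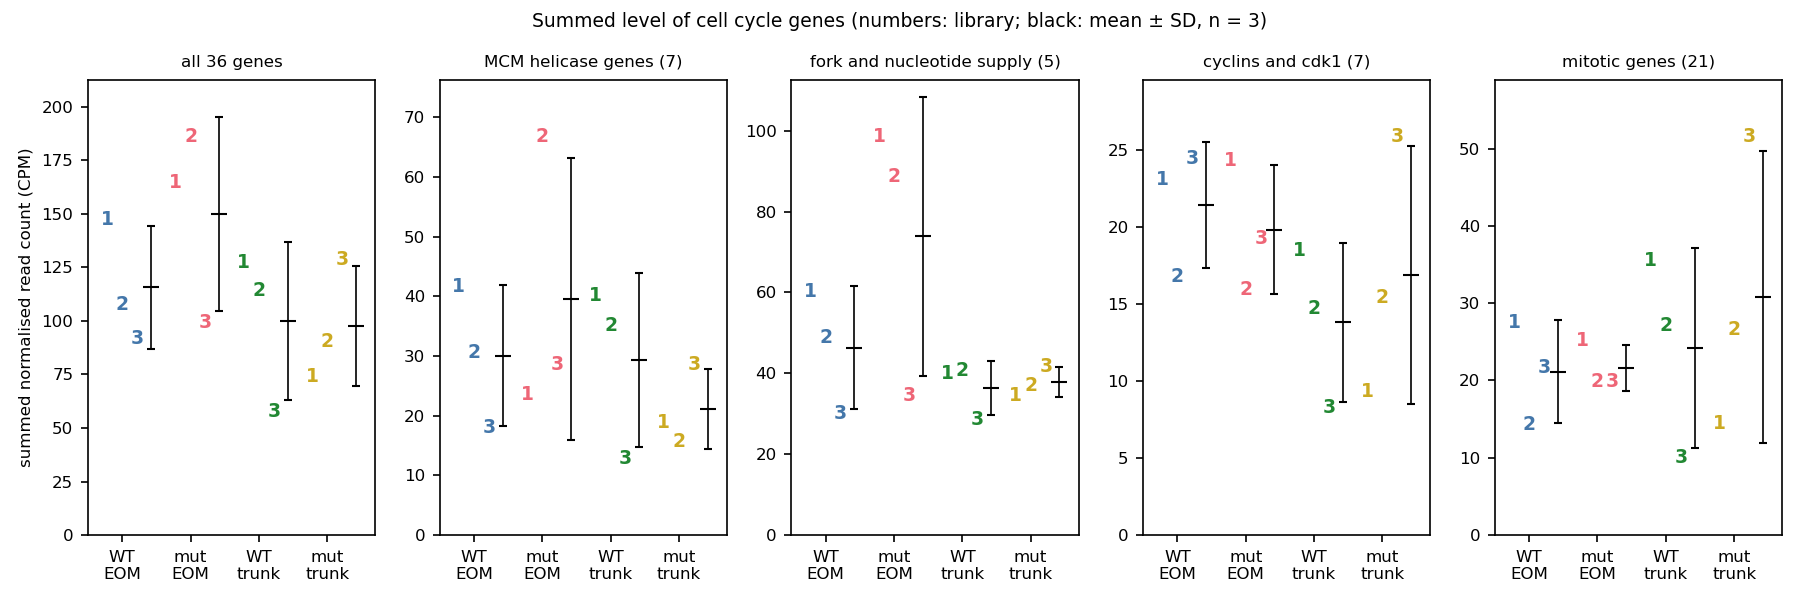
Summed CPM of the 36 genes and of 4 role groups (vertical axes, CPM, from 0) in each group of libraries. The 21 mitotic genes include ccna2, ccnb1, ccnb2 and cdk1, which the cyclin panel holds too. Digits mark libraries 1 to 3 of a group and black bars the mean ± SD (n = 3); mutant EOM libraries 1 and 2, at 164.9 and 186.0 CPM, hold the highest totals and WT trunk library 3, at 57.9 CPM, the lowest.

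Within groups the libraries differed more than the group means did. WT trunk library 3 had the lowest level of its group for 33 of the 36 genes and the lowest of all 12 libraries for 17 of them. Its fibroblast marker list was also the lowest of all, at 484 CPM against 1145 and 1150 CPM in the other WT trunk libraries. Mutant trunk library 3 held the highest level of all 12 libraries for 12 of the 36 genes. Mutant EOM library 2 was the highest for 7 genes and the lowest for 6. It had reads on 19431 genes and mutant trunk library 2 on 19402, against 21556 to 24467 in the other libraries.

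**Figure D2:**
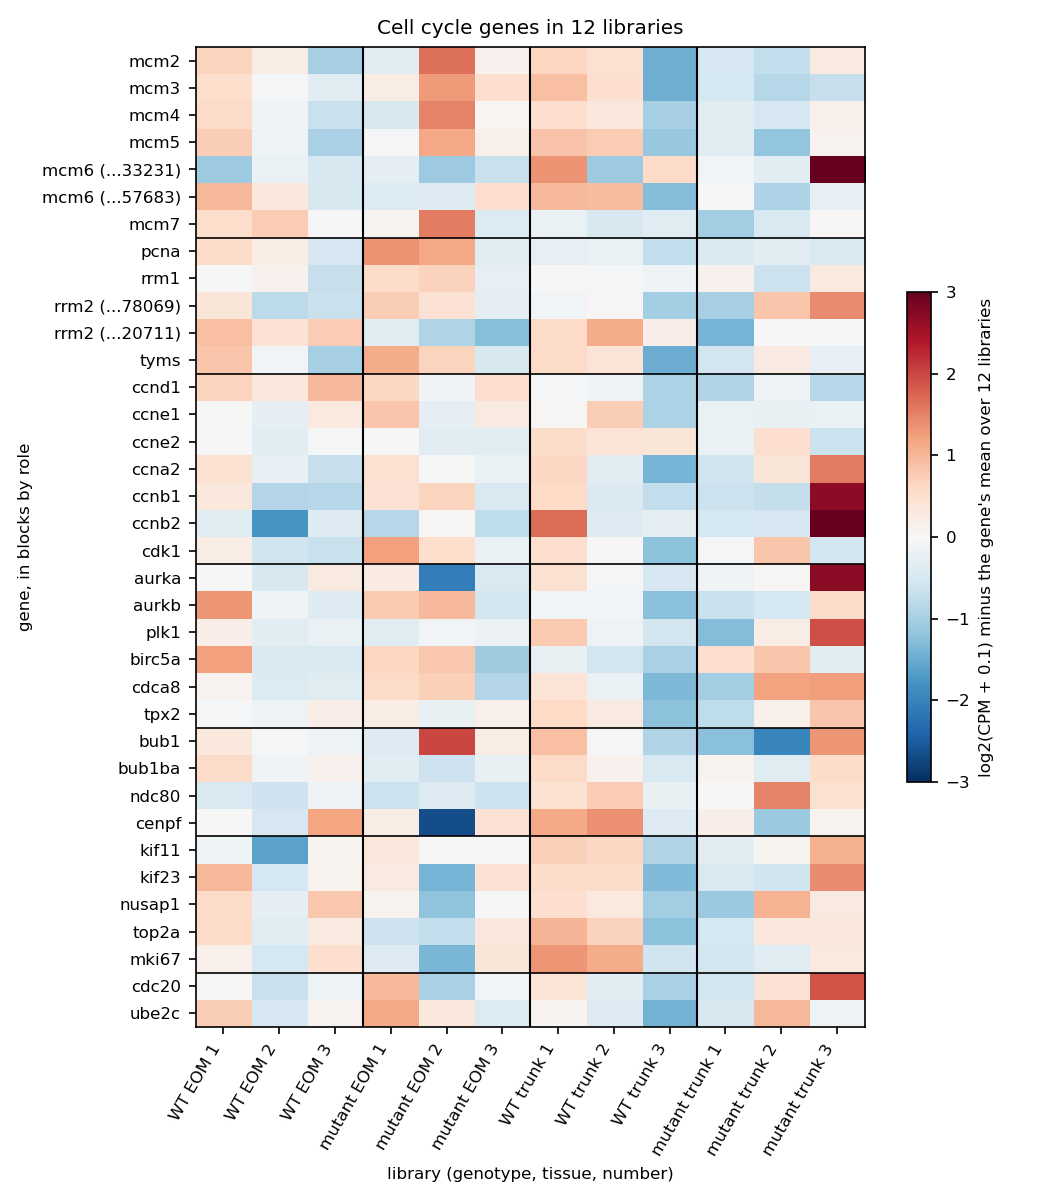
Level of each of the 36 genes (rows, in blocks by role) in each library (columns), as log2(CPM + 0.1) minus the mean of that gene, with colours saturated at 3. WT trunk library 3 is pale to dark blue for most genes, mutant trunk library 3 is dark red for ccnb1, ccnb2, aurka and one mcm6 gene, and mutant EOM library 2 is red for mcm2, mcm3, mcm4, mcm5 and mcm7.

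The helicase genes mcm2 to mcm7 showed no separation by genotype. In WT EOM the 3 libraries held 8.40, 6.10 and 2.57 CPM of mcm2, and in mutant EOM 4.11, 16.6 and 5.76 CPM. WT trunk held 8.16, 7.16 and 1.84 CPM and mutant trunk 3.63, 3.11 and 6.31 CPM. Mutant EOM library 2 was the highest of the 12 and WT trunk library 3 the lowest, and the genotypes overlapped in both tissues. For mcm5 the values were 6.69, 3.55 and 2.00 CPM in EOM of WT fish and 3.89, 9.02 and 4.44 CPM in EOM of mutants. In trunk the levels were 7.34, 6.86 and 1.76 CPM in WT and 3.20, 1.71 and 4.27 CPM in mutants. The same EOM library was again the highest. It held 1.97 times the next highest library for mcm2, 1.91 times for mcm4, 1.72 times for mcm7, 1.31 times for mcm3 and 1.23 times for mcm5. For mcm6 (ENSDARG00000057683), a part of the same ring of 6 kinds of subunit, it held 2.23 CPM against 6.004 CPM in the highest library. Its fibroblast list, at 2113 CPM, was the highest of the 12 and its photoreceptor list, at 74.5 CPM, too. The part of such cells in these levels was not tested.

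A second gene row under the symbol, mcm6 (ENSDARG00000033231), behaved unlike the rest of the helicase. Its neighbours in the deposited gene order, such as zcchc2, ahrrb and cul1a, were those of the gene mcm6l in the RefSeq annotation. The neighbours of ENSDARG00000057683 were those of mcm6. The row ENSDARG00000033231 was kept with the helicase genes because the name table gives it the symbol of mcm6. In EOM that row did not exceed 0.0870 CPM in any library. WT trunk held 0.441, 0 and 0.219 CPM, and mutant trunk 0.103, 0.0713 and 2.21 CPM. Mutant trunk library 3 thus held 5.01 times the next highest library.

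Of the fork and nucleotide genes, pcna stood at 44.1, 35.3 and 21.3 CPM in EOM of WT fish and at 76.9, 67.6 and 23.4 CPM in EOM of mutants. In trunk the values were 25.3, 26.1 and 18.1 CPM in WT and 22.1, 24.2 and 21.8 CPM in mutants. In mutant EOM, libraries 1 and 2 lay above every other library and library 3 within the WT range, while the trunk groups overlapped almost fully. Of the 13 marker lists of other cells, 2, the leukocyte and the red blood cell lists, held the libraries of all 4 groups in the same order as pcna. All of these levels share 1 normalisation factor per library, at 0.951, 1.27 and 1.68 in WT EOM libraries 1, 2 and 3. In mutant EOM the factors were 0.8875, 0.9875 and 1.80. A shared factor can by itself put levels in the same order, so no link is drawn from it. The leukocyte list of 11 genes held 610, 484 and 425 CPM in EOM of WT fish and 1845, 1266 and 595 CPM in EOM of mutants. In trunk it held 208, 211 and 180 CPM in WT and 459, 513 and 363 CPM in mutants. The red blood cell list ranged from 442 to 5006 CPM in EOM and from 321 to 846 CPM in trunk, and the part of either kind of cell in the pcna level was not tested.

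The large subunit gene of ribonucleotide reductase, rrm1, ranged from 5.58 to 14.8 CPM over the 12 libraries with overlapping genotypes. The small subunit gene rrm2 (ENSDARG00000020711) was the only one of the 36 genes with every mutant library below every WT library in both tissues. In either direction, 11.0% of all genes were separated in EOM and 26.8% in trunk. The share separated in both tissues was not counted, so how rare this is was not tested. This rrm2 gene held 0.899, 0.626 and 0.804 CPM in EOM of WT fish and 0.324, 0.188 and 0.122 CPM in EOM of mutants. In WT trunk it held 0.694, 1.06 and 0.518 CPM and in mutant trunk 0.103, 0.428 and 0.414 CPM. The other gene of that symbol, rrm2 (ENSDARG00000078069), did not show this: its levels were 1.50 to 3.44 CPM in WT EOM, 2.14 to 4.46 CPM in mutant EOM, 1.25 to 2.69 CPM in WT trunk and 1.27 to 7.23 CPM in mutant trunk. The thymidylate synthase gene tyms ranged from 0.483 to 3.44 CPM.

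Cyclin D1 links growth signals to entry into the cycle. Its gene ccnd1 held 17.2, 13.6 and 21.1 CPM in EOM of WT fish and 16.6, 9.88 and 15.3 CPM in EOM of mutants. In trunk the levels were 10.4, 9.96 and 5.47 CPM in WT and 5.65, 9.57 and 5.91 CPM in mutants. In both genotypes every EOM library lay above every trunk library. The cyclin E genes ccne1 and ccne2, which act at the start of S phase, stayed between 0.104 and 1.08 CPM. The kinase gene cdk1, whose product drives entry into mitosis, held 1.34, 0.713 and 0.678 CPM in EOM of WT fish and 2.80, 1.68 and 0.979 CPM in EOM of mutants. It held 1.65, 1.14 and 0.426 CPM in WT trunk and 1.08, 2.09 and 0.737 CPM in mutant trunk. The genotypes overlapped in both tissues.

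The mitotic cyclin gene ccnb1 held 1.67, 0.670 and 0.687 CPM in EOM of WT fish and 1.81, 2.15 and 0.921 CPM in EOM of mutants. In trunk the levels were 2.04, 0.947 and 0.748 CPM in WT and 0.808, 0.760 and 8.98 CPM in mutants. Its relative ccnb2 held 0.138 and 0.142 CPM in mutant trunk libraries 1 and 2 and 5.76 CPM in library 3. Mutant trunk library 3 was thus 4.18 times the next highest of the other 11 libraries for ccnb1 and 5.78 times for ccnb2. The cyclin A gene ccna2 was also highest there, at 3.79 CPM against at most 1.94 CPM elsewhere.

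Among the mitotic kinases, aurka, which encodes Aurora A of the spindle poles, held 0.317, 0.200 and 0.407 CPM in EOM of WT fish and 0.398, 0 and 0.209 CPM in EOM of mutants. It held 0.479, 0.311 and 0.196 CPM in WT trunk and 0.292, 0.333 and 2.64 CPM in mutant trunk. Once more 1 library, mutant trunk 3, lay far above the rest, at 5.51 times the next. The Polo-like kinase gene plk1 was highest in the same library, at 3.27 CPM against at most 1.41 CPM elsewhere. The chromosomal passenger complex corrects faulty attachments of chromosomes to the spindle. Its subunit survivin, encoded by birc5a, held 1.32, 0.348 and 0.343 CPM in EOM of WT fish and 0.839, 0.957 and 0.187 CPM in EOM of mutants. In trunk the levels were 0.416, 0.311 and 0.207 CPM in WT and 0.756, 0.974 and 0.388 CPM in mutants. Its partners aurkb and cdca8 ranged from 0.276 to 2.14 CPM and from 0.161 to 1.48 CPM, and cdca8 was highest in mutant trunk library 3. The spindle assembly gene tpx2 ranged from 0.587 to 2.81 CPM.

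The spindle checkpoint kinase gene bub1 held 0.608, 0.452 and 0.416 CPM in EOM of WT fish and 0.339, 2.197 and 0.561 CPM in EOM of mutants. In trunk it held 0.958, 0.447 and 0.207 CPM in WT and 0.138, 0.0475 and 1.32 CPM in mutants. The high values were those of mutant EOM library 2 and mutant trunk library 3. Its relative bub1ba lay between 0.267 and 0.382 CPM in mutant EOM, below the 0.417 to 0.735 CPM of WT EOM. The kinetochore genes ndc80 and cenpf ranged from 0.751 to 3.63 CPM and from 0 to 1.54 CPM.

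The proliferation antigen gene mki67, whose product coats mitotic chromosomes, held 2.58, 1.58 and 3.30 CPM in EOM of WT fish and 1.75, 0.832 and 3.02 CPM in EOM of mutants. WT trunk held 5.91, 5.13 and 1.50 CPM and mutant trunk 1.53, 1.78 and 2.87 CPM. WT trunk libraries 1 and 2 were the highest of the 12, and WT trunk library 3 lay below all mutant trunk libraries. The topoisomerase gene top2a, which untangles sister chromosomes, held 4.07, 2.05 and 3.25 CPM in EOM of WT fish and 1.72, 1.58 and 3.36 CPM in EOM of mutants. In trunk the levels were 5.57, 4.38 and 1.08 CPM in WT and 1.82, 3.35 and 3.36 CPM in mutants. Both genotypes overlapped. The motor genes kif11 and kif23 ranged from 0.287 to 2.35 CPM and from 0.204 to 2.04 CPM, and the spindle gene nusap1 from 0.345 to 2.02 CPM. Of the partners of the anaphase promoting complex, which ends mitosis, cdc20 ranged from 0.391 to 3.48 CPM and ube2c from 0.288 to 2.18 CPM.

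Loss of both desmins in EOM left no cell cycle gene past the threshold, an adjusted p under 0.05 in edgeR's quasi-likelihood test with Benjamini-Hochberg adjustment over all genes. Of the 36 genes 35 had enough reads to be tested, and 0 were called, against 0.303% of all genes. DESeq2 and limma-voom also called 0, against 125 and 27 of all 18804 genes. The median log2 fold change of the 35 genes was 0.21, with 21 positive and 14 negative, beside a median of 0.03 over all genes tested. An unadjusted p under 0.05 was reached by 1 gene, where the share over all genes was 5.37%. This was rrm2 (ENSDARG00000020711), which stood at -1.90 on the log2 scale (SE 0.68, unadjusted p = 0.00988, adjusted p = 0.588 by edgeR, lower in all 3 mutant libraries). Groups without overlap were found for 2 of the 35 genes, that rrm2 gene and bub1ba, both lower in mutants, against 11.0% of all genes.

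By role, 5 of 6 tested helicase genes and 4 of 5 fork and nucleotide genes had positive log2 fold changes in EOM, with medians of 0.54 in both roles. The kinetochore genes had a median of -0.41 and the spindle and chromosome genes of -0.40. For pcna the change was 0.72 on the log2 scale (SE 0.48, adjusted p = 0.999 by edgeR). For mcm2 it was 0.62 (SE 0.52) and for mcm5 0.50 (SE 0.49). The next smallest unadjusted p values after rrm2 belonged to cdk1, at 0.99 (SE 0.54, adjusted p = 0.968 by edgeR), and bub1, at 1.06 (SE 0.66, adjusted p = 0.999). Without mutant EOM library 2, the helicase median was -0.21, with 2 of 6 positive, and the fold change of bub1 was -0.11. In a fit with a block for the library number, which paired these EOM libraries, 0 of the 35 genes were called, against 3.10% of all genes. That fit gave rrm2 (ENSDARG00000020711) a value of -1.97 on the log2 scale (SE 0.65, adjusted p = 0.0678 by edgeR).

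In trunk the loss of desmin likewise left 0 of 36 genes past the threshold in edgeR and limma-voom, against 0.0333% of all genes in edgeR. DESeq2 also called 0, against 614 of all 18041 genes, but gave no adjusted p for ccnb1 and ccnb2. None had an unadjusted p under 0.05, which 13.1% of all genes had. The median log2 fold change was 0.07, with 20 positive and 16 negative, beside -0.03 over all genes. The smallest p values belonged to birc5a at 1.17 (SE 0.53, adjusted p = 0.405 by edgeR), rrm2 (ENSDARG00000020711) at -1.25 (SE 0.63, adjusted p = 0.435) and mki67 at -1.01 (SE 0.53, adjusted p = 0.454). Of these, the rrm2 gene was the 1 gene of the 36 whose groups did not overlap, against 26.8% of all genes. The values for pcna and ccnd1 were -0.03 (SE 0.20) and -0.29 (SE 0.34).

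With each trunk library left out in turn, 20 of the 36 genes changed sign, while 6 stayed positive, among them birc5a, cdca8, cdc20 and ube2c, and 10 stayed negative, among them mki67, cenpf and mcm2 to mcm5. All 6 genes of the mitotic kinases and their complexes had positive log2 fold changes (median 0.96). That role holds aurka, aurkb, plk1, birc5a, cdca8 and tpx2, and not the kinase genes cdk1 and bub1. Of the helicase genes, 6 of 7 had negative log2 fold changes (median -0.39), all but mcm6 (ENSDARG00000033231). Without mutant trunk library 3, 9 of the 36 genes were positive and 27 negative, with a median of -0.36. Of the 6 genes of the mitotic kinases and their complexes, 2 were positive there. The fold change of ccnb1 went from 1.50 (SE 1.00) to -0.67 in that fit and that of bub1 from -0.07 (SE 1.11) to -2.48. All 7 helicase genes were negative there (median -0.93). For mcm6 (ENSDARG00000033231), 1 of these 7, the sign rested on few reads. Mutant trunk libraries 1 and 2 held 6 and 3 reads of it, and the WT trunk libraries 35, 0 and 19. Without WT trunk library 3, in which nearly all of the 36 genes were low, 13 were positive and 23 negative. Neither fit called any of them, and each called 0 of all genes.

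**Figure D3:**
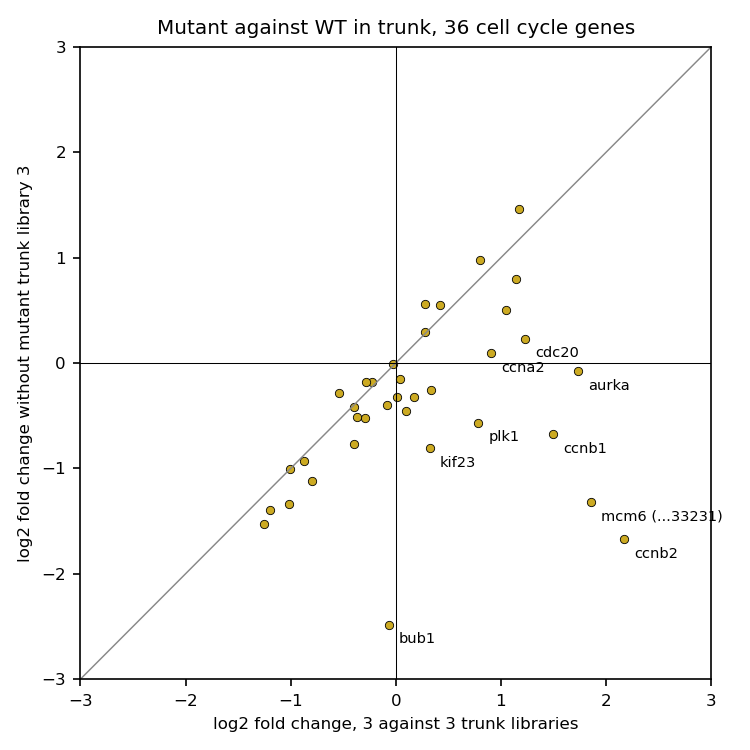
Log2 fold change of mutant against WT in trunk from all 6 libraries (horizontal axis) against that without mutant trunk library 3 (vertical axis), 1 point for each of the 36 genes, with the diagonal of equal values. Genes that move by over 0.8 are named; ccnb1 goes from 1.50 to -0.67, and 27 of the 36 points lie below 0 on the vertical axis.

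Mutant trunk library 3 also held transcripts of oocytes. A list of 17 egg genes, drawn up after that library was seen to stand apart, summed to 138.7 CPM there, against 2.82 and 4.20 CPM in the other mutant trunk libraries. WT trunk held 22.1, 2.098 and 11.4 CPM, and EOM between 0.806 and 3.08 CPM. Of the 17 egg genes, 16 were highest in this library. In it, 11 of the 36 cell cycle genes were over 2 times the higher of the other 2 mutant trunk libraries. The ratio was 40.4 for ccnb2, 21.5 for mcm6 (ENSDARG00000033231), 11.1 for ccnb1, 9.60 for bub1 and 7.94 for aurka. For other genes it was under 1, such as 0.353 for cdk1, 0.399 for birc5a and 0.901 for pcna. The germ line list fixed with the other cell markers gave 3.23 CPM in this library, against 0.361 and 0.119 CPM in the other mutant trunk libraries and 1.42 to 2.04 CPM in WT trunk. Among the trunk libraries, WT library 1 was the second highest for 15 of the 17 egg genes. Leaving out mutant trunk library 3 thus did not free the trunk comparison of egg transcripts. WT libraries 1 and 3 then held more of them, at 22.1 and 11.4 CPM, than the mutant libraries left, at 2.82 and 4.20 CPM. The part of egg transcripts in the mitotic gene levels was not tested. As the labels give no sex, the egg gene levels could not be set against the sex of the fish.

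**Figure D4:**
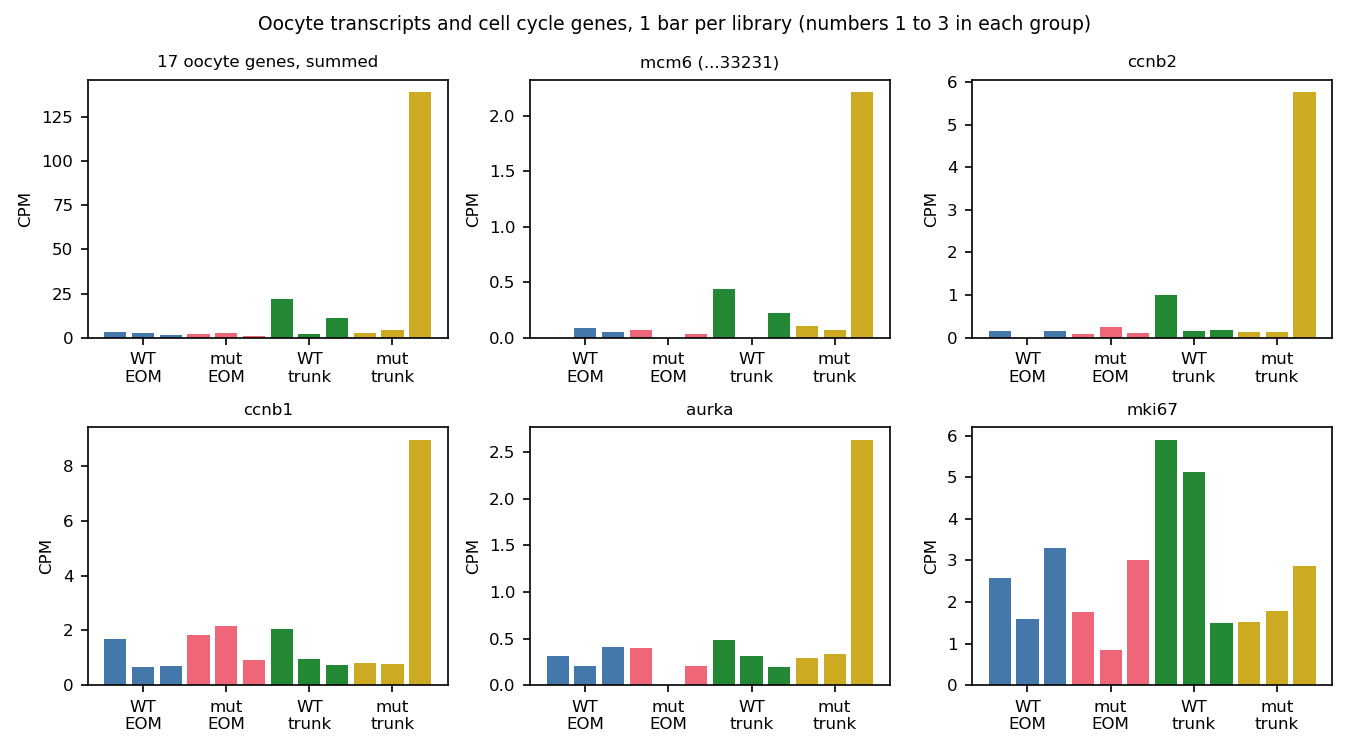
CPM of the summed 17 oocyte genes and of 5 cell cycle genes, 1 bar per library, in the order of libraries 1 to 3 within WT EOM, mutant EOM, WT trunk and mutant trunk. The last bar, mutant trunk library 3, is the highest in every panel but that of mki67, where WT trunk libraries 1 and 2 reach 5.91 and 5.13 CPM.

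Whether the effect of genotype differed between the tissues was tested as an interaction over the 12 libraries. None of the 36 genes passed, against 0.00998% of all genes. DESeq2 and limma-voom also called 0, against 13 and 1 of all 20041 genes. DESeq2 gave no adjusted p for ccnb2. An unadjusted p under 0.05 was reached by 1 gene, mcm3 (log2 difference -1.66, SE 0.72, unadjusted p = 0.0367, adjusted p = 0.934 by edgeR), where the share over all genes was 4.43%. Levels of mcm3 were 4.71, 3.16 and 2.53 CPM in EOM of WT fish and 3.77, 7.99 and 4.62 CPM in EOM of mutants. In trunk they were 6.08, 4.62 and 1.105 CPM in WT and 2.2, 1.73 and 1.95 CPM in mutants, with overlap in both tissues. The next smallest p values belonged to aurka (2.33, SE 1.42) and mcm5 (-1.30, SE 0.80). The interaction was negative for 6 of 7 helicase genes (median -0.89), all but mcm6 (ENSDARG00000033231). It was positive for all 6 genes of the mitotic kinases and their complexes (median 0.73). For the kinase genes cdk1 and bub1, counted in other roles, it was -0.72 and -1.13. Without mutant trunk library 3, 27 of the 36 genes were negative.

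Between the tissues of WT fish, 2 of the 35 tested genes were called, both lower in trunk, against 27.0% of all genes. They were ccnd1, at -0.99 (log2 fold change, SE 0.28, adjusted p = 0.0271 by edgeR), and mcm7, at -0.81 (SE 0.25, adjusted p = 0.0349). For mcm7 the 3 WT EOM libraries held 7.62, 8.90 and 5.31 CPM and the WT trunk libraries 4.51, 3.75 and 4.06 CPM, with no overlap. An unadjusted p under 0.05 was reached by 3 of the 35, these 2 and ndc80 (0.87, SE 0.33), against 39.4% of all genes. Such separation was seen for 3 genes, ccnd1 and mcm7 lower in trunk and ccne2 higher, against 44.9% of all genes. Without WT trunk library 3, edgeR called 3529 of all 19720 genes tested. Among the cell cycle genes, the 2 calls in that fit were ndc80 (1.11, adjusted p = 0.0477 by edgeR) and mki67 (1.17, adjusted p = 0.0412). Both were higher in trunk, and ccnd1 and mcm7 were not called. Without WT EOM library 1, 0 of the cell cycle genes were called, against 3883 of all 19694 genes. Without WT trunk library 2, 0 were called, against 3103 of 19911. The fit of all 12 libraries called 0, against 1968 of 20041.

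Between the tissues of mutants, 0 of 35 genes were called in edgeR, against 6.57% of all genes. DESeq2 called 1, mcm3, against 1741 of all 18049 genes. DESeq2 gave no adjusted p for ccnb2 there. An unadjusted p under 0.05 was reached by 5 genes in edgeR, where the share over all genes was 16.7%. These were ccnb2 (log2 fold change 3.83, SE 1.20, adjusted p = 0.0719 by edgeR), mcm3 (-1.42, SE 0.53), pcna (-1.20, SE 0.48), ndc80 (1.55, SE 0.64) and aurka (2.54, SE 1.12). All 6 tested helicase genes had lower levels in mutant trunk than in mutant EOM (median -0.93), also without mutant trunk library 3 (median -1.25) and without mutant EOM library 2 (median -0.36). Groups did not overlap for 3 genes, mcm3 and ccnd1 lower in trunk and ndc80 higher, against 23.3% of all genes. Without mutant EOM library 3, pcna was called at -1.70 (adjusted p = 0.0336 by edgeR), against 969 of all 18358 genes. Without mutant trunk library 1, ccnb2 was called at 4.38, against 933 of 19058. Without mutant trunk library 2, ccnb2 at 4.39 and aurka at 2.94 were called, against 1644 of 19158. Without mutant trunk library 3, 0 were called, against 1143 of 18793. In that fit ccnb2 went to 0.014 (adjusted p = 0.999 by edgeR) and aurka to 0.77.

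A wider set of 147 cell cycle symbols outside the 34 was measured the same way, and 141 of them matched 143 gene rows. Of the 138 tested in each genotype comparison, edgeR called 0 in EOM and 0 in trunk, and 0 of 140 in the interaction. The shares over all genes were 0.303%, 0.0333% and 0.00998%. The median log2 fold change of the wider set was 0.17 in EOM and -0.02 in trunk. Positive values were found for 12 of 18 genes of origin licensing and firing in EOM and 13 of 18 in trunk, and for 20 and 17 of 30 polymerase, fork and nucleotide genes. Among cell cycle transcription factors, kinases and cyclins, they were found for 22 of 29 in EOM (median 0.22) and 7 of 28 in trunk (median -0.36). Kinetochore genes had 10 of 19 and 11 of 20, spindle genes 12 and 8 of 19, condensin and chromatin genes 7 and 3 of 10, and brakes 8 of 13 in both tissues. For foxm1, a transcription factor of mitotic genes, the log2 fold change was 0.72 (SE 0.86) in EOM and -0.88 (SE 0.70) in trunk, and for e2f1, a factor of S phase genes, 0.06 (SE 1.13) and -1.79 (SE 1.04). Both lay below 1 CPM in all groups.

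Brakes on the cycle gave 0 calls of 13 tested in either tissue, against 0.303% of all genes in EOM and 0.0333% in trunk. In trunk 4 of the 13 had an unadjusted p under 0.05 by edgeR, against 13.1% of all genes. In EOM 0 did, against 5.37% of all genes. The gene btg2, an antiproliferative factor, held 75.6 to 139 CPM in WT trunk and 167 to 238 CPM in mutant trunk, with no overlap. Groups without overlap were found for 26.8% of all genes in trunk. On the log2 scale the change of btg2 in trunk was 1.05 (SE 0.30, unadjusted p = 0.00950, adjusted p = 0.272 by edgeR), and in EOM -0.12 (SE 0.46). The Cdk inhibitor gene cdkn1a (p21) averaged 1.74 ± 0.57 CPM in EOM of WT fish and 0.83 ± 0.44 CPM in EOM of mutants (SD, n = 3). Its fold change on the log2 scale was -1.06 there (SE 0.55, adjusted p = 0.946 by edgeR) and 0.29 in trunk (SE 0.43). The name table gives the p27 symbol CDKN1B to 2 gene rows. ENSDARG00000029018.6 had log2 fold changes of 0.47 (SE 0.45) in EOM and 0.53 (SE 0.19, adjusted p = 0.334 by edgeR) in trunk, and ENSDARG00000054271.5 of 0.41 (SE 0.43) and 0.27 (SE 0.29). The retinoblastoma gene rb1 had 0.52 (SE 0.47) and 0.00 (SE 0.47).

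Between the tissues of WT fish, 7 genes of the wider set were higher and 6 lower in trunk, of 138 tested, where 27.0% of all genes were called. Higher in trunk were the transcription factors mybl1 at 1.90 (SE 0.39, adjusted p = 0.00590 by edgeR) and foxm1 at 1.79, the kinetochore gene knl1 at 1.68, the polymerase gene pola1 at 0.94, and the mitotic genes kif20ba at 2.31, melk at 1.56 and CIT (ENSDARG00000089856) at 1.11. Lower in trunk were the D-type cyclin gene CCND2 (ENSDARG00000051748) at -1.31, the checkpoint gene bub3 at -1.28, the MCM binding protein gene mcmbp at -1.05, the Cdk inhibitor gene cdkn1ca at -0.84, hmgb2b at -0.81 and tfdp2 at -0.77. In the same WT comparison, 7 of 11 tested oocyte genes were called higher in trunk and 1 lower. The part of egg transcripts in these levels was not tested. Between the tissues of mutants edgeR called 0 of 137, against 6.57% of all genes.

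Markers of cells that can divide were measured as summed levels. No gene of the satellite cell, leukocyte, lymphocyte, fibroblast and endothelial lists was called by edgeR in either genotype comparison. Over all genes, edgeR called 0.303% in EOM and 0.0333% in trunk. The satellite cell and myoblast list of 10 genes summed to 84.2 to 112.3 CPM in EOM of WT fish and 104.2 to 181 CPM in EOM of mutants. In trunk it summed to 51.7 to 64.8 CPM in WT and 73.3 to 104.6 CPM in mutants, without overlap. Of its 9 genes tested in trunk, however, 3 had positive and 6 negative log2 fold changes, with a median of -0.44, and 0 were called. Leukocyte markers overlapped between the genotypes in EOM, at 425 to 610 CPM against 595 to 1845 CPM, and did not overlap in trunk, at 180 to 211 CPM against 363 to 513 CPM. Of the 10 leukocyte genes tested in trunk, 8 had positive and 2 negative log2 fold changes. An unadjusted p under 0.05 by edgeR was reached by 8 of them, against 13.1% of all genes. In EOM it was reached by 3 of 10, against 5.37% of all genes. Lymphocyte markers stayed at 5.23 CPM or less. Fibroblast markers ranged from 484 to 1150 CPM in WT trunk and from 713 to 1189 CPM in mutant trunk. Endothelial markers ranged from 276 to 362 CPM and from 173 to 256 CPM in the same groups, without overlap. Of all single genes, 26.8% had trunk genotypes without overlap, and no such share was counted for summed lists. All 4 tested endothelial genes had negative log2 fold changes in trunk. The summed 36 genes overlapped between genotypes in both tissues, and the part of any of these cells in them was not tested. Photoreceptor transcripts stood at 21.95 to 74.5 CPM in EOM and at most 0.880 CPM in trunk. Retinal progenitor transcripts overlapped between the tissues, at 0.235 to 0.735 CPM in EOM and 0.0238 to 0.361 CPM in trunk.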

How the data were processed

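Raw counts of reads on each gene were deposited by the authors, with 1 file per library, in the layout of the aligner STAR. STAR, DESeq2 and the build GRCz11 are named in the submitters' processing notes, and versions and the annotation release are not given in the sources used here. Per the labels, libraries were poly-A selected and stranded. The stranded column with the larger total was used, which held 96.43 to 97.26% of stranded reads, and the 4 summary lines stayed out. Unmapped reads were 7.08 to 14.82%, multimapping reads 8.28 to 12.51%, reads in no gene 4.43 to 9.24% and ambiguous reads 1.22 to 1.80% of each library.

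Symbols were matched as written (8), in capitals (25) or in capitals without the paralogue letter (1, birc5a). edgeR 4.0.16 in R 4.3.3 was run on all genes, with TMM, its default filter (minimum count 10, total 15), the robust quasi-likelihood test and Benjamini-Hochberg adjustment. The SE given for edgeR was derived from that test, as the absolute log2 fold change divided by the square root of its F value. Genotypes were compared within a tissue and tissues within a genotype, on 6 libraries each, and the interaction on 12. CPM used TMM over 12 libraries. Group and replicate number came from the labels. Libraries with the same number deviated together in EOM (correlations 0.44, 0.40 and 0.69 for numbers 1, 2 and 3). Between mutant tissues the correlations were -0.16, 0.15 and 0.58, so numbers 2 and 3 went together and number 1 did not. In the other comparisons none exceeded 0.0652. The block was read as a pairing only in EOM, where all 3 numbers went together. All 12 pairs of libraries within groups differed by more than counting noise. Checks of the fits were made on simulated data. Alternatives were RLE factors, library totals, no filter, DESeq2 1.42.0, limma-voom (limma 3.58.1), the replicate block, unstranded counts, 1 fit of 12 libraries and each library left out.

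The genes and lists were chosen with earlier results of these data known, and the oocyte list after the levels were seen. Values per library were given for mki67, top2a, cdk1, pcna, mcm2, mcm5, ccnb1 and ccnd1, for members called in a genotype comparison or the interaction, and for the 3 with the smallest unadjusted p in each. In tissue comparisons up to 3 called members per direction were named, and of each wider list up to 3 called genes, with foxm1, e2f1, cdkn1a, cdkn1bb, rb1 and btg2 always. Other genes shown by library, such as ccnb2, aurka and the second mcm6 gene, were chosen after their values were seen. Promoter sequences were not analysed here.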

Additional observations from a re-analysis of the deposited data

How the results depend on the processing

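In the genotype comparisons and the interaction, 0 of the 36 genes were called under every alternative run. Genes without an adjusted p, such as ccnb2 in DESeq2 in trunk, were counted as not called. Under the replicate block the calls were 0 in EOM, 0 in trunk, 0 in the interaction, 1 (ccnd1) between WT tissues and 0 between mutant tissues. The block thus removed mcm7 and changed no other call. Over all genes it called 582 of 18804 in EOM, 0 of 18041 in trunk and 3 of 20041 in the interaction. Between tissues it called 4213 of 18981 in WT and 1357 of 18049 in mutants. Between WT tissues, the fit of 12 libraries called 0, and leaving out 1 library gave 0 to 3, against 3103 to 7732 over all genes. Between mutant tissues the count was 1 with library totals (pcna, against 988 of all 18049 genes). It was 2 without the filter (ccnb2 and mcm6, ENSDARG00000033231, against 1712 of 26545). Both were high in mutant trunk library 3 alone, at 5.76 and 2.21 CPM. The other mutant trunk libraries held at most 0.142 and 0.103 CPM. The count was 1 with DESeq2 (mcm3, against 1741 of 18049) and 1 in the fit of 12 libraries (pcna, against 2313 of 20041). It was 0 to 2 with 1 library left out, against 515 to 1644 over all genes. Counting 1 gene per symbol, chosen after the data were seen, gave the main counts.

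Library totals alone moved the median of all genes by more than 0.1, to -0.50 in trunk, -0.42 in the interaction, -0.43 between WT tissues and -0.86 between mutant tissues. They turned cdk1 in trunk to -0.33, and top2a and ccnd1 in the interaction to -0.46 and -0.42. Relative to that shift all 3 stayed near or above 0. Without the filter, ccnd1 in the interaction was -0.013.

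With 1 library left out, log2 fold changes in EOM ran from -0.20 to 1.01 for mcm2 and from -0.11 to 1.48 for bub1, both turning only without mutant library 2. In trunk they ran from -0.80 to 0.063 for top2a, from -0.25 to 0.74 for cdk1, from -0.18 to 0.065 for pcna and from -0.67 to 2.05 for ccnb1. In the interaction they ran from -0.32 to 0.55 for top2a, from -1.35 to 1.37 for ccnb1 and from -0.26 to 0.25 for ccnd1. The cause was not tested. The rrm2 gene ENSDARG00000020711 stayed negative throughout, from -2.33 to -1.61 in EOM and from -1.53 to -0.83 in trunk.

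Counts over all genes moved more. The 57 calls in EOM became 2 with library totals, 120 without the filter, 125 with DESeq2, 27 with limma-voom, 582 with the block, 34 in the fit of 12 libraries and 0 to 78 with 1 library left out. The 6 in trunk became 3, 52, 614, 6, 0 and 52 under the same settings, 14 on unstranded counts, and 0 to 251 with 1 library left out. The 2 in the interaction became 0 with library totals and 13 with DESeq2. The fit of 12 libraries called 1968 of all genes between WT tissues, against 5116, and 2313 between mutant tissues, against 1186. The SE of most genes limits what 3 libraries a group can show, and not only at levels near 1 CPM or below. For pcna, at 21.3 to 76.9 CPM in EOM, the SE between genotypes was 0.48 there. For tpx2, at 1.29 to 1.78 CPM in EOM, it was also 0.48. In trunk the SE of pcna was 0.20 and that of tpx2 0.62.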

Other observations

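The meiotic gene sycp1, part of the synaptonemal complex and of the germ line list, was lower in the mutant libraries than in the WT libraries of the same tissue. It held 0.443, 0.261 and 0.632 CPM in the WT libraries of EOM and 0.0589, 0 and 0.0864 CPM in the mutant ones. In trunk it held 1.15, 1.76 and 1.24 CPM in WT and 0.275, 0.0713 and 0.802 CPM in mutants. In EOM the mutants had a log2 fold change against WT of -3.06 (SE 0.98, adjusted p = 0.414 by edgeR). In trunk it was -1.82 (SE 0.75, adjusted p = 0.374 by edgeR). Neither value passed the threshold, although mutants lay below WT without overlap in both tissues. Such separation, in either direction, was found for 11.0% of all genes in EOM and 26.8% in trunk. The share of all genes separated in both tissues was not counted. The germ line list of 6 genes, sycp1 among them, summed to 0.507, 0.304 and 0.687 CPM in WT EOM libraries 1, 2 and 3. Most of that was sycp1 itself, so the list is no separate measure of its lower level in mutants. In mutant EOM the list summed to 0.162, 0.078 and 0.209 CPM. In trunk the list overlapped, at 1.42 to 2.04 CPM in WT and 0.119 to 3.23 CPM in mutants. The gene sycp1 was chosen after its values were seen.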
